A study of Mus musculus with 20 samples.

Results

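The AP-1 and immediate early genes Fos, Fosb, Fosl2, Jun, Junb, Jund, Egr1, Ier2, Atf3 and Dusp1 are 10 of the 46318 genes counted in a bulk RNA-seq experiment on cultured mouse macrophages. They were selected on a measured value: the listed group was chosen because the Fos count was lower in each treated group than in the solvent controls, so every comparison of them with the controls is a description: no p-value is given there, and counts of calls stand only beside their background. All 10 had enough reads to enter the test, as 13307 genes of the experiment did. The cells were macrophages grown from the bone marrow of C57BL/6 female mice with a recombinant growth factor (spelled M-DSF in the labels), then treated for 24 h and lysed as whole cultures. There were 4 groups of 5 biological replicates. DSHNplusGW cultures received DSHN at 50 µM together with GW3965 at 1 µM, GW3965 cultures received GW3965 at 1 µM, DSHN cultures received DSHN at 50 µM, and DMSO cultures received the solvent. Per the labels, DSHN is an agonist of NR0B2, an orphan nuclear receptor that represses other receptors, and GW3965 activates LXR, the receptor for oxysterols, which turns on cholesterol export. The series compares the 2 compounds and their combination because NR0B2 is described in it as an inhibitor of LXR.

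Immediate early genes are transcribed within minutes of a growth factor, cytokine or stress signal, without new protein being made first, and their messengers decay fast. Fos and Jun proteins pair through leucine zippers to form the AP-1 transcription factor, which in macrophages drives many genes of migration and inflammation. MAP kinases switch the genes on through factors that sit at serum response and cAMP response elements, and Dusp1 switches the kinases off again. A single time point at 24 h therefore shows the standing level of these messengers and not the early pulse.

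The promoters of 8 of the 10 genes were found in a RefSeq promoter table (GRCm38.p6), and the 250 bases before the start of transcription were searched on both strands. Egr1 and Ier2 had no entry. Those of Fos, Dusp1 and Atf3 are printed because these 3 genes carry the main patterns below: Fos was lower than in DMSO with every treatment and lowest with GW3965, Dusp1 followed it most closely among the other 9, and Atf3 differed from both. The Fos window is chr12:85473640-85473889 on the plus strand, that of Dusp1 is chr17:26508473-26508722 on the minus strand, and that of Atf3 is chr1:191183334-191183583 on the minus strand. Each sequence runs 5′ to 3′ along its gene, and capitals mark TGACG on either strand (the core of the cAMP response element), the full element TGACGTCA, which holds that core on both strands, and the TATA box core TATAAA.
Fos: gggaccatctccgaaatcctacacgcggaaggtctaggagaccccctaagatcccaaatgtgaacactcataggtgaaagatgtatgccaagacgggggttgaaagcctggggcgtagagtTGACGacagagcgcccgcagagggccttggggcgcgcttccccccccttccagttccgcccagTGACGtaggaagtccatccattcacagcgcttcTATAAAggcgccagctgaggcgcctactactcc
Dusp1: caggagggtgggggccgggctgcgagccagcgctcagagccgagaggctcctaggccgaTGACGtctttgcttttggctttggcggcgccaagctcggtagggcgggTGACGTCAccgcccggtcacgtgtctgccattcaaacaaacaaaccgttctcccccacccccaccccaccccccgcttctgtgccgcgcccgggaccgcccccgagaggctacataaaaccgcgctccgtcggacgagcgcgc
Atf3: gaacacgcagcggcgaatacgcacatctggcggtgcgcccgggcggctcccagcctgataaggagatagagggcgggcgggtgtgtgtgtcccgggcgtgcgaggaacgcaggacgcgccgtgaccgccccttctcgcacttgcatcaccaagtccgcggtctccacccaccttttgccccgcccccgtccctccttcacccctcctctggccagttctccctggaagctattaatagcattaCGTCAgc

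Fos held TGACG at positions −129 to −125 and −66 to −62, counted back from the start, and TATAAA at −33 to −28. Dusp1 held the full element TGACGTCA at −143 to −136, and Atf3 held TGACG on the opposite strand at −7 to −3. TGACG was present in 5 of the 8 promoters (Fos, Fosb, Junb, Atf3 and Dusp1), against 17.8% of the 32851 promoters of the table, and the full element in 1 of 8, against 1.55%. The EGR site GCGNGGGCG was present in Fosb and Fosl2 and in 4.7% of all promoters, and TATAAA in Fos and in 12.4%. The letters of the AP-1 site TGANTCA (6.75% of all promoters), of the CArG box of serum response factor (1.47%), of the LXR element, a direct repeat of AGGTCA with 4 bases between (0.0152%), and of a single AGGTCA (4607 of the 32851) were not in these 8 windows. These matches describe the letters of the windows and say nothing of binding in these cells. Forms of an element with other letters or another length were not searched for. Sequence beyond the windows was not searched, nor were the promoters of Egr1 and Ier2. An element absent here, such as the CArG box, may therefore still lie further from the start of these genes.

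Library totals ran between 16855029 and 23796561 counts, and no gene of the annotation overlapped any of the 10. The macrophage markers Adgre1, Csf1r, Cd68, Mertk, Itgam, Lyz2 and Fcgr1 were all present, with a summed level of 15970 to 17590 CPM in DSHNplusGW, 16060 to 18170 CPM in GW3965, 17710 to 19070 CPM in DSHN and 15710 to 17010 CPM in DMSO libraries (CPM, counts scaled to a common library size, here with TMM factors). Most of that sum was Lyz2 (means of 11770, 10860, 12000 and 10260 CPM in this order of groups), and single markers differed between groups. Csf1r averaged 1489, 2049, 2095 and 1826 CPM, Adgre1 1281, 1763, 1819 and 1727 CPM, Mertk 222, 306, 159.7 and 116 CPM, and Itgam 997, 1059, 1308 and 1417 CPM in the same order, and their part in the results was not tested. The summed markers of granulocytes, of T, NK and B cells, of dendritic cells, of mast cells and of erythroid cells were each at most 4.14 CPM in any library. The 5 fibroblast and endothelial markers, mostly Col1a1, summed to 1191 to 1431 CPM in DSHNplusGW, 1528 to 2031 CPM in GW3965, 1422 to 1833 CPM in DSHN and 1322 to 1693 CPM in DMSO libraries, and their part in the results was not tested. The DSHNplusGW libraries stood apart in how read counts depended on transcript length. In each library, log2 CPM minus the gene's mean over the 20 libraries was regressed on log2 exon length. A slope is therefore relative to the mean of all libraries, and its sign alone says nothing of a single group. Slopes were −0.12 to −0.09 with the combination, against 0.03 to 0.05 with GW3965, 0.006 to 0.06 with DSHN and 0.03 to 0.06 with DMSO. Counts from mitochondrial genes made up 0.201% to 0.246% with the combination, against 0.129% to 0.147% with GW3965, 0.119% to 0.152% with DSHN and 0.114% to 0.136% with DMSO. Exon lengths of the 10 genes ran from 1522 bases (Ier2) to 7081 bases (Fosl2), at percentiles 13.3 to 80.2 of the tested genes, so the log2 fold changes of these genes with the combination, Fosb aside, are also given after a per-library offset for exon length.

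Fos, the founding Fos subunit of AP-1 (GeneID 14281, GRCm39 chr12:85520664-85524048, plus strand, 4 exons), was lower in all 15 treated libraries than in any control. Its level was 14.5, 12.1, 12.6, 16.6 and 14.3 CPM in the DSHNplusGW libraries and 8.82, 10.4, 8.17, 11.4 and 9.27 CPM in the GW3965 libraries. It was 14.9, 14.2, 12.96, 14.6 and 15.1 CPM in the DSHN libraries, against 58.9, 44.7, 46.1, 58.5 and 66.3 CPM in the DMSO libraries. The lowest control library thus lay far above the highest treated library, the DSHNplusGW and DSHN libraries shared a range, and the GW3965 libraries lay below both. Against DMSO the log2 fold change was −1.97 (SE 0.10, −2.12 after the length offset) with the combination, −2.50 (SE 0.10) with GW3965 and −1.94 (SE 0.10) with DSHN, so that Fos was by counts at 0.256, 0.176 and 0.261 of the control level in these 3 groups. In bulk libraries, fewer cells that hold a transcript and less of it per cell cannot be told apart.

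**Figure D1:**
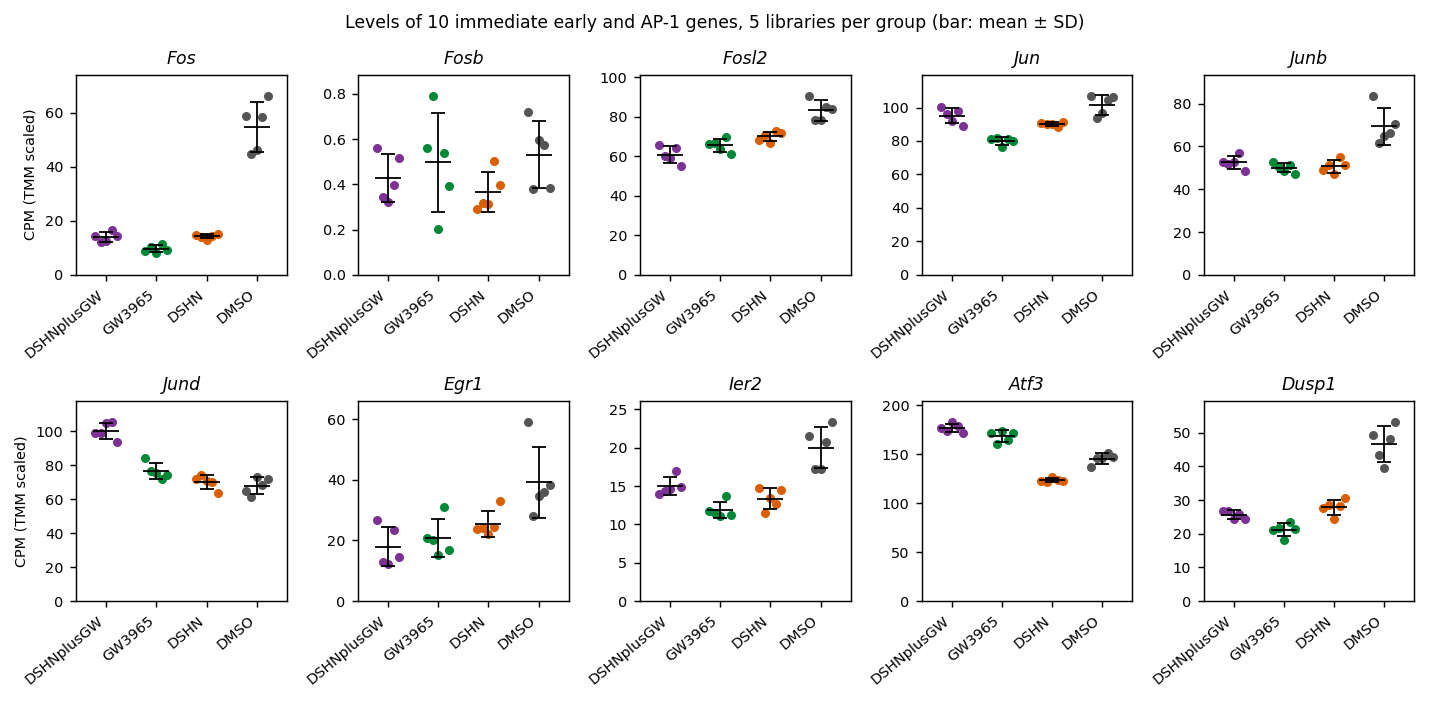
Levels of the 10 genes in CPM (vertical axes, each starting at 0) in the 20 libraries, by group; points are libraries and bars the mean ± SD of 5. Fos lies at 8.17 to 16.6 CPM in the treated libraries and at 44.7 to 66.3 CPM in the DMSO libraries, Jund is highest with the combination, and Atf3 is higher in both groups that received GW3965.

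Treated groups can be compared with each other in contrasts that leave out the mean of the controls, on which the choice of genes rests. The scaling, the estimate of spread and the length offset still drew on all 20 libraries. With only the 2 groups of a contrast fitted, 5 of the 10 genes were called for the combination against GW3965. In such fits 4 were called for the combination against DSHN and 4 for GW3965 against DSHN. These were also the numbers of the full fit. Fos was higher with the combination than with GW3965 alone, at 14.01 ± 1.78 CPM in DSHNplusGW and 9.62 ± 1.31 CPM in GW3965 libraries (SD, n = 5 each), a log2 fold change of 0.54 (SE 0.12, edgeR adjusted p = 0.000358). After the length offset it was 0.39 (SE 0.12, edgeR adjusted p = 0.00869). It was lower with GW3965 than with DSHN, at 9.62 ± 1.31 CPM in GW3965 and 14.3 ± 0.834 CPM in DSHN libraries (log2 fold change −0.57, SE 0.12, edgeR adjusted p = 0.000795). No difference was detected between the combination and DSHN alone (log2 fold change −0.03, SE 0.11, edgeR adjusted p = 0.834; after the length offset −0.17, SE 0.11, edgeR adjusted p = 0.213). The Fos level with both compounds was thus nearer to that with DSHN than to the lower level with GW3965, on deposited counts.

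Fosb (GeneID 14282, GRCm39 chr7:19036621-19043970, minus strand), a Fos subunit known in neurons for its long-lived splice form, was close to the limit of detection. It had 6 to 12 counts in DSHNplusGW, 4 to 16 in GW3965, 6 to 9 in DSHN and 7 to 16 in DMSO libraries, which is under 1 CPM throughout, and all ranges overlapped. No contrast among treated groups was called, with or without the length offset, and the SE of 0.31 to 0.33 on the log2 scale shows how little this depth resolves.

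Fosl2 (GeneID 14284, GRCm39 chr5:32292599-32315184, plus strand), the Fra-2 subunit, which lacks the strong activation domain of Fos, had the longest exons of the 10. It stood at 55.3 to 65.9 CPM with the combination, 61.4 to 70.0 CPM with GW3965 and 66.9 to 72.7 CPM with DSHN, against 78.4 to 90.6 CPM with DMSO. Every treated library was therefore below every control, with a log2 fold change against DMSO of −0.45 (SE 0.05, −0.24 after the length offset) for the combination, −0.34 (SE 0.05) for GW3965 and −0.25 (SE 0.05) for DSHN. Between the combination and GW3965 the log2 fold change was −0.11 (SE 0.05, edgeR adjusted p = 0.0607) by counts and 0.09 (SE 0.05, edgeR adjusted p = 0.132) after the offset. The combination was below DSHN by counts (log2 fold change −0.20, SE 0.05, edgeR adjusted p = 0.000863), but after the length offset the value was −0.01 (SE 0.05, edgeR adjusted p = 0.882).

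Jun (GeneID 16476, GRCm39 chr4:94937273-94940459, minus strand, a gene of 1 exon), the main partner of Fos and the target of the JNK kinases, moved much less than Fos. Its level was 100.4, 96.3, 92.0, 97.7 and 89.1 CPM in DSHNplusGW libraries and 81.1, 81.9, 76.3, 81.0 and 79.9 CPM in GW3965 libraries. It was 90.7, 90.4, 90.3, 88.1 and 91.6 CPM in DSHN libraries, against 106.9, 93.7, 97.0, 104.6 and 106.4 CPM in DMSO libraries. GW3965 libraries were the lowest and shared no value with any other group, and the DSHNplusGW range overlapped that of DSHN and that of DMSO. The combination was above GW3965 (log2 fold change 0.25, SE 0.04, edgeR adjusted p = 6.1e-06; after the length offset 0.22, edgeR adjusted p = 4.12e-05). GW3965 was below DSHN (log2 fold change −0.17, SE 0.04, edgeR adjusted p = 0.0023). The combination was not called against DSHN (log2 fold change 0.08, SE 0.04, edgeR adjusted p = 0.0972; after the length offset 0.05, edgeR adjusted p = 0.28). Against DMSO the log2 fold change was −0.10 (SE 0.04, −0.11 after the length offset) with the combination, −0.35 (SE 0.04) with GW3965 and −0.17 (SE 0.04) with DSHN.

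Junb (GeneID 16477, GRCm39 chr8:85703538-85705377, minus strand), a Jun subunit that can counter the activity of Jun, was lower with all 3 treatments than with DMSO. It had 48.6 to 56.8 CPM with the combination, 47.3 to 52.9 CPM with GW3965 and 47.0 to 55.0 CPM with DSHN, against 61.4 to 83.6 CPM with DMSO. The treated ranges overlapped one another and none reached the controls, with log2 fold changes against DMSO of −0.40 (−0.60 after the length offset), −0.47 and −0.45 (SE 0.06 each). None of the 3 contrasts among treated groups was called (edgeR adjusted p 0.363, 0.507 and 0.9), with log2 differences of 0.07, 0.05 and −0.02 (SE 0.06 each) for the combination against GW3965, the combination against DSHN and GW3965 against DSHN. With the length offset, the values for the combination changed sign, to −0.12 against GW3965 (SE 0.07, edgeR adjusted p = 0.16) and −0.13 against DSHN (SE 0.07, edgeR adjusted p = 0.117).

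Jund (GeneID 16478, GRCm39 chr8:71150389-71153265, plus strand), the Jun subunit that resting cells keep at a steady level, was highest with the combination. Its level was 98.8, 98.8, 104.5, 105.2 and 93.7 CPM in DSHNplusGW libraries and 84.3, 76.6, 75.7, 71.9 and 73.9 CPM in GW3965 libraries. It was 71.7, 74.3, 70.9, 70.2 and 63.7 CPM in DSHN libraries, against 64.6, 61.1, 73.3, 68.5 and 71.9 CPM in DMSO libraries. The combination thus stood alone, above all other 15 libraries, while the other 3 groups overlapped. It rose by 0.39 on the log2 scale against GW3965 (SE 0.05, edgeR adjusted p = 2.88e-07) and by 0.51 against DSHN (SE 0.05, edgeR adjusted p = 3.29e-09). After the length offset these were 0.33 (edgeR adjusted p = 3.64e-06) and 0.46 (edgeR adjusted p = 2.46e-08). GW3965 and DSHN were not called different (log2 fold change 0.12, SE 0.05, edgeR adjusted p = 0.104). Against DMSO the log2 fold change was 0.56 (SE 0.05, 0.51 after the length offset) with the combination, 0.17 (SE 0.05) with GW3965 and 0.05 (SE 0.05) with DSHN.

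Per kilobase of exon, which allows levels of different genes to be set side by side, Fos was 4th of the 10 genes in DMSO cultures and 8th or 9th in the treated ones. Its level was 6.64 RPKM (CPM per kilobase of exon, range 5.73 to 7.86) with the combination, 4.56 RPKM (3.87 to 5.43) with GW3965 and 6.79 RPKM (6.14 to 7.14) with DSHN, against 26.0 RPKM (21.2 to 31.4) with DMSO. In DMSO cultures the range of Fos overlapped those of Jun (29.4 to 33.5 RPKM), just above, and Dusp1 (20.3 to 27.3 RPKM), just below. Among the treated groups it overlapped Egr1 and Fosl2 with the combination and Egr1 with GW3965, and with DSHN it lay below Egr1 without overlap. Atf3 was first and Fosb last in every group, both apart from their neighbours. Jund was 2nd with the combination at 34.8 RPKM (32.6 to 36.6), apart from Jun at 29.8 RPKM below it, and 6th with DMSO at 23.6 RPKM (21.2 to 25.5). RPKM values divide by length but do not remove the length slope of the DSHNplusGW libraries.

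**Figure D2:**
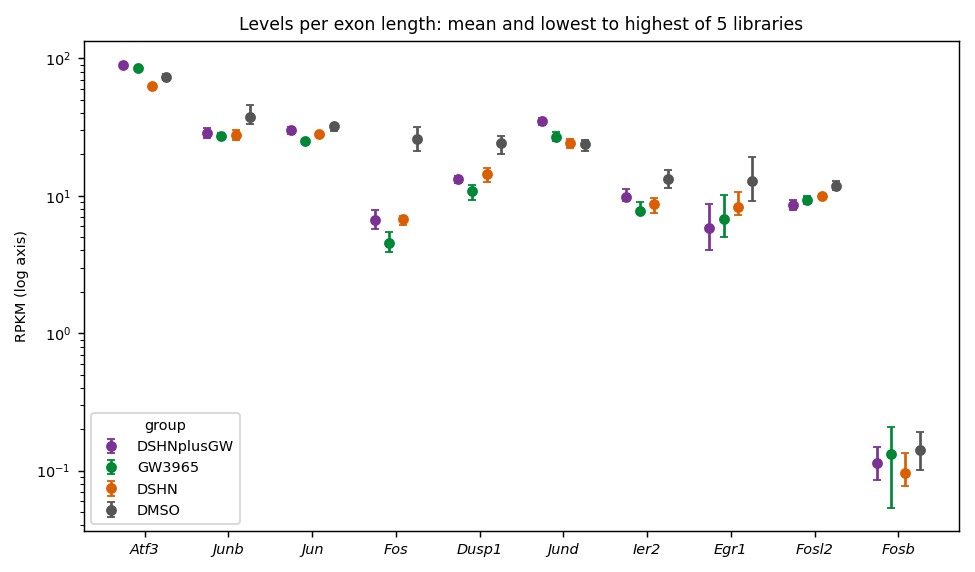
Levels of the 10 genes per exon length (RPKM, log axis), with the mean as a point and the lowest to highest of 5 libraries as a bar, by group. Fos lies beside Jun and Dusp1 in DMSO cultures and beside Fosl2 and Egr1 in cultures with the combination, and Fosb is far below the other 9.

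The make-up of AP-1 messengers differed accordingly. Fos made up 42.4% ± 2.74 of the summed RPKM of the Fos family (Fos, Fosb, Fosl1 and Fosl2) with the combination, 31.8% ± 2.29 with GW3965 and 39.6% ± 1.15 with DSHN, against 67.5% ± 2.94 with DMSO (SD, n = 5 each). Fosl2 took most of the rest, at 55.1%, 65.0% and 57.9% in the 3 treated groups, against 30.9% with DMSO. Jund made up 37.4% ± 0.88 of the summed RPKM of Jun, Junb and Jund with the combination, 33.7% ± 1.18 with GW3965 and 30.4% ± 1.42 with DSHN, against 25.4% ± 2.08 with DMSO. The Jun family exceeded the Fos family by 5.98, 5.54 and 4.69 times in the 3 treated groups, against 2.45 times in DMSO cultures, with ranges of 4.43 to 6.38 over the treated libraries and 2.21 to 2.73 over the controls. These shares restate the levels on which the genes were chosen, so no test was applied. They also keep the length slope of the DSHNplusGW libraries. For the combination against DSHN the length offset moved the log2 fold change of Fosl2 from −0.20 to −0.01 and that of Fos from −0.03 to −0.17. The difference in shares between these 2 groups thus depends on that slope.

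Atf3 (GeneID 11910, GRCm39 chr1:190902493-190915530, minus strand), a bZIP factor of the stress response that pairs with Jun proteins and restrains inflammatory genes in macrophages, was the most abundant of the 10. Its level was 177, 174, 183, 179 and 172 CPM in DSHNplusGW libraries and 172, 161, 174, 165 and 172 CPM in GW3965 libraries. It was 123, 122, 127, 124 and 123 CPM in DSHN libraries, against 137, 146, 146, 152 and 147 CPM in DMSO libraries. All 10 libraries that received GW3965 were above all controls and all 5 DSHN libraries were below them. Against DMSO the log2 fold change was 0.28 (SE 0.03, 0.11 after the length offset) with the combination, 0.21 (SE 0.03) with GW3965 and −0.23 (SE 0.03) with DSHN. Atf3 rose with GW3965 relative to DSHN (log2 fold change 0.45, SE 0.03, edgeR adjusted p = 3.23e-11) and with the combination relative to DSHN (log2 fold change 0.52, SE 0.03, edgeR adjusted p = 1.65e-12; after the length offset 0.35, edgeR adjusted p = 7.2e-10). Between the combination and GW3965 the sign depended on the length offset, with a log2 fold change of 0.07 (SE 0.03, edgeR adjusted p = 0.0704) without it and −0.10 (SE 0.03, edgeR adjusted p = 0.00903) with it.

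Dusp1 (GeneID 19252, GRCm39 chr17:26724565-26727446, minus strand) encodes the nuclear phosphatase that switches off p38 and JNK and is itself an immediate early gene. Its level was 26.9, 26.9, 24.3, 26.0 and 24.2 CPM in DSHNplusGW libraries and 21.2, 21.8, 18.1, 23.4 and 21.6 CPM in GW3965 libraries. It was 27.6, 28.4, 24.5, 28.3 and 30.7 CPM in DSHN libraries, against 49.3, 43.5, 39.4, 48.2 and 53.1 CPM in DMSO libraries. As with Fos, no treated library reached a control, GW3965 libraries were the lowest, and the combination and DSHN overlapped. The log2 fold change against DMSO was −0.86 (SE 0.07, −1.04 after the length offset) with the combination, −1.14 (SE 0.07) with GW3965 and −0.74 (SE 0.07) with DSHN. Dusp1 was lower with GW3965 than with DSHN (log2 fold change −0.39, SE 0.08, edgeR adjusted p = 0.000392). Relative to GW3965 it was higher with the combination by counts (0.27, SE 0.08, edgeR adjusted p = 0.00354), and after the length offset by 0.10 (SE 0.08, edgeR adjusted p = 0.299). Relative to DSHN it was not called by counts (−0.12, SE 0.08, edgeR adjusted p = 0.176) and was lower after the offset (−0.29, SE 0.08, edgeR adjusted p = 0.00324).

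Ier2 (GeneID 15936, GRCm39 chr8:85387960-85389481, minus strand), an immediate early gene whose product acts in the nucleus, had the shortest exons of the 10. Its level was 13.9, 14.4, 14.7, 16.98 and 14.9 CPM in DSHNplusGW libraries and 11.7, 11.5, 11.2, 13.7 and 11.3 CPM in GW3965 libraries. It was 14.7, 11.5, 13.5, 12.7 and 14.5 CPM in DSHN libraries, against 21.6, 17.3, 17.2, 20.7 and 23.3 CPM in DMSO libraries. The controls were apart from all treated libraries, and among the treated groups only the combination and GW3965 did not overlap. That difference was 0.33 on the log2 scale by counts (SE 0.09, edgeR adjusted p = 0.0028) and 0.10 after the length offset (SE 0.09, edgeR adjusted p = 0.388). Against DSHN the combination gave 0.16 (SE 0.09, edgeR adjusted p = 0.131) by counts and −0.07 (SE 0.09, edgeR adjusted p = 0.537) after the offset. Against DMSO the log2 fold change was −0.42 (SE 0.08, −0.67 after the offset) with the combination, −0.75 (SE 0.09) with GW3965 and −0.58 (SE 0.08) with DSHN.

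Egr1 (GeneID 13653, GRCm39 chr18:34994260-34998009, plus strand), a zinc finger factor that ERK signalling induces and that takes part in macrophage differentiation, varied most between replicates among the genes above 1 CPM. Its level was 26.6, 13, 12.4, 23.4 and 14.6 CPM in DSHNplusGW libraries and 20.8, 20.2, 15.3, 31.0 and 16.8 CPM in GW3965 libraries. It was 23.9, 24.2, 22.3, 24.3 and 32.9 CPM in DSHN libraries, against 59.0, 28.1, 34.6, 35.9 and 38.2 CPM in DMSO libraries. Only the combination was apart from the controls, and the 3 treated groups overlapped. The coefficient of variation was 36.4% with the combination, 29.5% with GW3965, 16.5% with DSHN and 29.9% with DMSO. Against DMSO the log2 fold change was −1.11 (SE 0.20, −1.14 after the length offset) with the combination, −0.91 (SE 0.20) with GW3965 and −0.62 (SE 0.19) with DSHN. The combination was not called against GW3965 (log2 fold change −0.21, SE 0.22, edgeR adjusted p = 0.427; after the offset −0.25, edgeR adjusted p = 0.369). The combination was called lower than DSHN (log2 fold change −0.49, SE 0.21, edgeR adjusted p = 0.0477; after the offset −0.53, edgeR adjusted p = 0.0438), a call that was lost with DESeq2 (adjusted p = 0.0924) and when any 1 of 13 of the 20 libraries was left out, with adjusted p-values of 0.00834 to 0.152 over all 20 omissions.

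Counting all 10 genes, 5 rose with the combination relative to GW3965 (Fos, Jun, Jund, Ier2 and Dusp1) and 0 fell by edgeR (0 by DESeq2 and by limma voom, and 1, Fosl2, at an unadjusted p under 0.05), where 28.3% of the 13307 tested genes rose and 29.5% fell. In these 5 the libraries of the 2 groups did not overlap, as in 19.8% of tested genes when higher (22.6% when lower). After the length offset Fos, Jun and Jund were still called higher and Atf3 was called lower. The median log2 fold change of the 10 was 0.16, against 0.02 over all tested genes. Relative to DSHN, 2 rose with the combination (Jund and Atf3) and 2 fell (Fosl2 and Egr1), where 28.6% of tested genes rose and 29.5% fell, with medians of 0.06 for the 10 and 0.01 for all genes. The groups were apart for Jund and Atf3 (19.8% of tested genes when higher) and for Fosl2 (22.7% when lower). After the length offset Jund and Atf3 were still called higher and Egr1 lower. Fosl2 was then no longer called (edgeR adjusted p = 0.882) and Dusp1 was called lower (edgeR adjusted p = 0.00324). With GW3965 relative to DSHN, 1 rose (Atf3) and 3 fell (Fos, Jun and Dusp1), where 8.30% of tested genes rose and 8.82% fell, with medians of −0.13 for the 10 and 0.00 for all genes. Those 4 were also apart, as were 6.26% of tested genes when higher and 6.11% when lower. Of these 3 contrasts only the last compared groups whose length slopes overlapped.

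**Figure D3:**
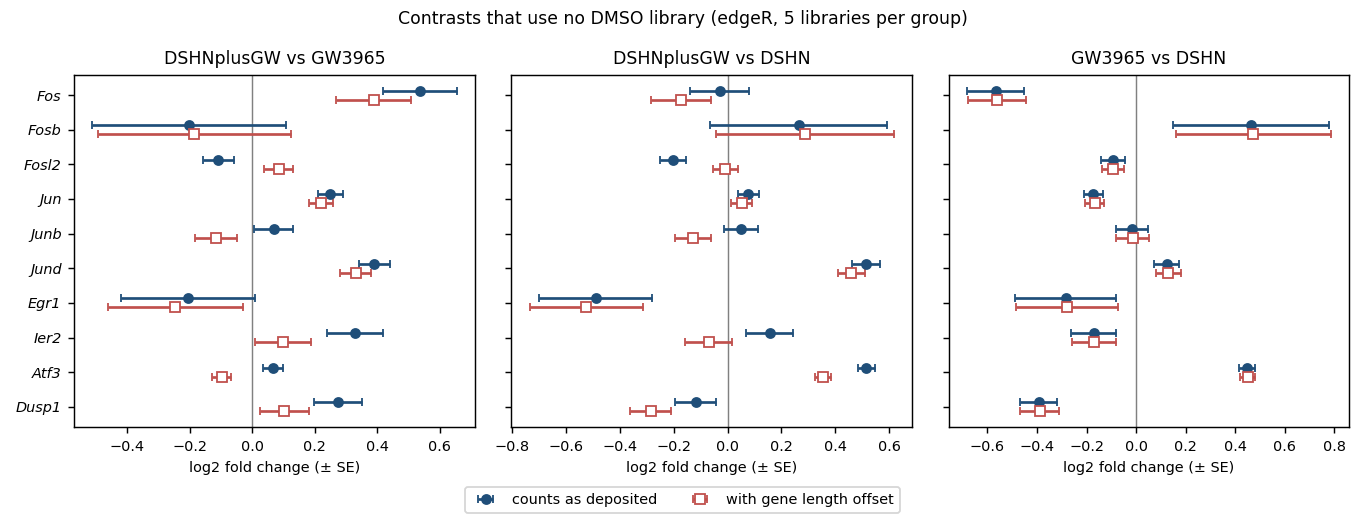
Log2 fold changes (horizontal axes, bars ± SE) of the 10 genes in the 3 contrasts between treated groups. Values are from counts as deposited (filled circles) and with the gene length offset (open squares). The DMSO mean does not enter these contrasts, but scaling, spread and offset came from all 20 libraries. Fos changed by 0.54 (0.39 with the offset) between the combination and GW3965, the values of Fosl2, Junb and Atf3 lie on opposite sides of 0 without and with the offset there, and both values nearly coincide between GW3965 and DSHN.

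Against DMSO the counts of called genes stand beside their background only as a description, since these contrasts chose the group. With the combination 2 of the 10 were higher (Jund and Atf3) and 7 lower, where 31.9% of tested genes were higher and 32.9% lower. With GW3965 2 were higher (the same 2 genes) and 7 lower, where 23.6% were higher and 23.0% lower. With DSHN 8 were lower and the other 2, Fosb and Jund, were not called, where 14.1% were higher and 14.8% lower. The libraries were apart for 8, 7 and 7 of the 10 genes with the combination, GW3965 and DSHN, and for 49.7%, 32.1% and 18.6% of tested genes. The DSHN difference in the presence of GW3965 minus that in its absence was 2.47 (SE 0.15) for Fos, 1.02 (SE 0.10) for Dusp1, 0.90 (SE 0.12) for Ier2, 0.52 (SE 0.09) for Junb and 0.42 (SE 0.06) for Jun on the log2 scale. With that offset they were 2.33, 0.86, 0.70, 0.35 and 0.38. It was 0.34 (SE 0.07) for Jund and 0.30 (SE 0.05) for Atf3, or 0.28 and 0.15 after the offset. These 7 were the called ones, where 23.7% of tested genes were above 0 and 26.5% below. Fosl2 stood at 0.14 (SE 0.07), or 0.32 (SE 0.06) after the offset, Egr1 at 0.42 (SE 0.29), or 0.37, and Fosb at 0.37 (SE 0.44). After the offset 8 were called, with Fosl2 added, where 2701 of all tested genes were called above 0 and 3178 below. Since the controls that chose the group enter this difference, nothing is read from these counts.

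Within groups the 10 genes differed in how much they varied. Egr1 was 0.64 above its group mean on the log2 scale in 1 DSHNplusGW library and 1 DMSO library (replicate 1 of each), while Atf3 had a coefficient of variation of 1.74% to 3.73%. Libraries also differed in how many of the 10 genes lay above the group mean. Above it stood 9 of the 10 genes in DMSO replicate 5, and 8 in replicates 1 and 4, but 1 in replicate 2 and 3 in replicate 3. With the combination it was 9 in replicate 4 and 7 in replicate 1, against 2, 3 and 2 in replicates 2, 3 and 5. With GW3965 it was 8, 7, 1, 8 and 2 in replicates 1 to 5, and with DSHN 4, 5, 4, 7 and 8. For Fos this spread was small beside the distance to the controls, whose lowest library was 44.7 CPM.

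**Figure D4:**
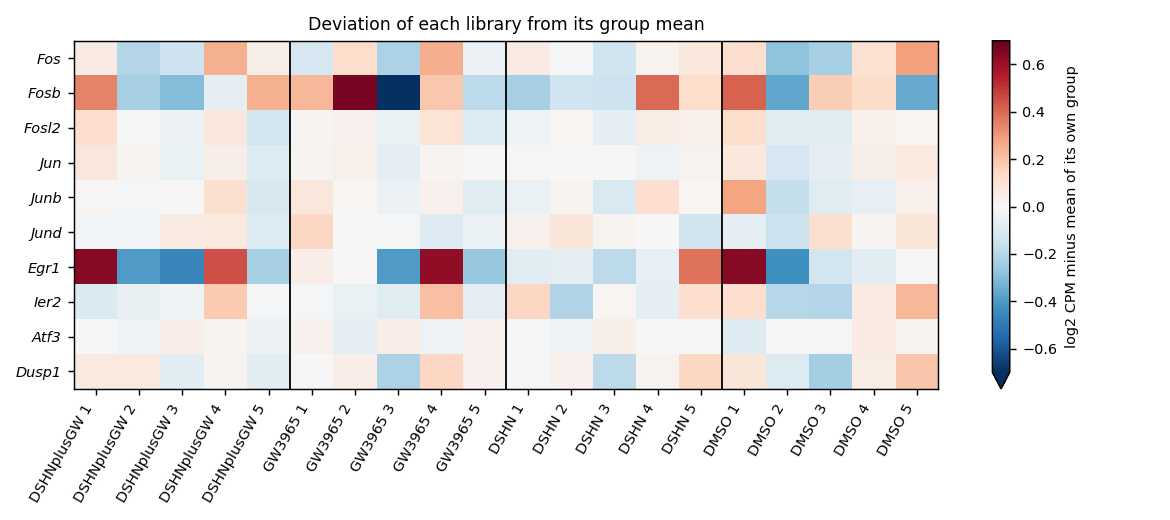
Deviation of each library (columns, by group and replicate) from the mean of its own group for the 10 genes (rows), in log2 CPM, with red above and blue below the mean and an arrow on the scale for values beyond its end. Egr1 and the sparsely counted Fosb vary most, and Atf3 and Jun vary little.

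Other genes around this group were counted by lists. Of 12 further AP-1 and related bZIP genes, all tested, 6 rose and 2 fell with the combination relative to GW3965 (median log2 fold change 0.05 against 0.02 over all genes), where 28.3% and 29.5% of all tested genes did. Relative to DSHN 5 rose and 2 fell (0.13 against 0.01), where 28.6% and 29.5% did, and with GW3965 relative to DSHN 1 rose and 1 fell (−0.03 against 0.00), where 8.30% and 8.82% did. Atf7, a relative of the Jun partner Atf2, fell with the combination relative to GW3965 by 0.52 on the log2 scale (SE 0.06, edgeR adjusted p = 1.14e-08) and after the length offset by 0.31 (edgeR adjusted p = 2.54e-06). Mafg, a small Maf protein, rose by 0.26 and Jdp2, a repressor that binds Jun, by 0.17 in the same contrast (edgeR adjusted p = 2.73e-05 and 0.0423), and with the offset Mafg rose by 0.49 and Jdp2 was not called (edgeR adjusted p = 0.365).

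Of 35 other immediate early genes 33 were tested. With the combination 15 rose and 5 fell relative to GW3965 (median 0.14, against 0.02 over all genes), where 28.3% and 29.5% of all tested genes did, or 11 and 7 after the length offset, and 13 rose and 5 fell relative to DSHN (median 0.07, against 0.01), where 28.6% and 29.5% did, or 8 and 5 after the offset. With GW3965 relative to DSHN 5 rose and 7 fell (median −0.06, against 0.00), where 8.30% and 8.82% did. Against DMSO 6 were higher and 17 lower with the combination, where 31.9% and 32.9% of all tested genes were. These numbers were 5 and 19 with GW3965, where 23.6% and 23.0% were, and 3 and 16 with DSHN, where 14.1% and 14.8% were. Ier3, a survival factor of the same induction class, averaged 26.9 ± 2.64 CPM with the combination, 16.1 ± 0.584 CPM with GW3965 and 23.3 ± 1.65 CPM with DSHN. It rose with the combination relative to GW3965 by 0.74 on the log2 scale (SE 0.07, edgeR adjusted p = 4.51e-10; 0.44 after the offset, edgeR adjusted p = 1.47e-06), and it fell with GW3965 relative to DSHN by 0.54 (SE 0.07, edgeR adjusted p = 5.44e-07). Cebpb, a bZIP factor of the inflammatory response, gave 0.58 (edgeR adjusted p = 1.83e-10; 0.35 after the offset) and −0.34 (edgeR adjusted p = 5.85e-06) in these 2 contrasts. Bhlhe40, a repressor that in macrophages keeps Il10 low, ran the other way, with −0.36 (edgeR adjusted p = 1.31e-06) and 0.80 (edgeR adjusted p = 5.55e-12). Zfp36, which makes unstable messengers decay, was higher with the combination than with GW3965 and DSHN, by 0.32 and 0.48 on the log2 scale (edgeR adjusted p = 8.34e-06 and 1.51e-08), and by 0.12 and 0.29 after the offset.

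Among 28 kinases and transcription factors that act upstream of these genes, all tested, 6 rose and 11 fell with the combination relative to GW3965 (median −0.06, against 0.02 over all genes), where 28.3% and 29.5% of all tested genes did. Relative to DSHN 5 rose and 12 fell (median −0.07, against 0.01), where 28.6% and 29.5% did. With GW3965 relative to DSHN 1 rose and 1 fell (median −0.02, against 0.00), where 8.30% and 8.82% did. Elk4, a partner of serum response factor at the Fos promoter, averaged 3.26 ± 0.822 CPM with the combination, 9.76 ± 0.935 CPM with GW3965 and 11.6 ± 1.76 CPM with DSHN. It fell with the combination by 1.56 on the log2 scale relative to GW3965 (SE 0.13, edgeR adjusted p = 1.42e-10) and by 1.81 relative to DSHN (SE 0.12, edgeR adjusted p = 6.83e-12), and by 1.44 and 1.69 after the length offset. The kinases Braf and Rps6ka3 and the actin-sensing cofactor Mrtfb were also lower with the combination, at 45.9, 248 and 56.5 CPM there, 65.0, 317 and 81.0 CPM with GW3965 and 62.2, 330 and 81.8 CPM with DSHN. Relative to GW3965 their log2 fold changes were −0.50, −0.36 and −0.52 (edgeR adjusted p = 4.53e-09, 1.39e-09 and 2.29e-10), and −0.25, −0.12 and −0.26 after the length offset.

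Of 14 other MAP kinase phosphatases and feedback inhibitors 2 rose and 3 fell with the combination relative to GW3965 (4 and 1 after the offset), where 28.3% and 29.5% of all tested genes did. Relative to DSHN 1 rose and 4 fell with the combination (3 and 2 after the offset), where 28.6% and 29.5% did, and with GW3965 relative to DSHN 1 rose and 2 fell, where 8.30% and 8.82% did. Medians were 0.04, −0.11 and −0.04 in these 3 contrasts, against 0.02, 0.01 and 0.00 over all genes. Dusp6, the cytoplasmic phosphatase of ERK, averaged 123 ± 10.3 CPM with the combination, 137 ± 10.2 CPM with GW3965 and 105 ± 5.80 CPM with DSHN. Its log2 fold change with GW3965 relative to DSHN was 0.38 (SE 0.06, edgeR adjusted p = 9.23e-06), opposite in sign to that of Dusp1. Spred2, an inhibitor of Ras signalling, was at −0.47 in the same contrast (SE 0.10, edgeR adjusted p = 0.00115). Dusp7 and Dusp16 gave 0.15 and −0.19 with the combination relative to GW3965 (edgeR adjusted p = 0.0106 and 0.0164), and Dusp16 was not called after the length offset (edgeR adjusted p = 0.373).

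Of 17 genes described as AP-1 targets 16 were tested. With GW3965 relative to DSHN 9 fell and 0 rose by edgeR (0 by DESeq2 and by limma voom, and 0 at an unadjusted p under 0.05; median −0.41, against 0.00 over all genes), where 8.82% of all tested genes fell and 8.30% rose. With the combination 7 rose and 2 fell relative to GW3965 (median 0.32, against 0.02), where 28.3% and 29.5% did, and 4 rose and 5 fell relative to DSHN (median −0.15, against 0.01), where 28.6% and 29.5% did, or 5 and 1, and 1 and 8, after the length offset. Against DMSO 14 were lower and 1 higher with the combination, 14 lower with GW3965 and 13 lower with DSHN, the rest not called, where 32.9%, 23.0% and 14.8% of all tested genes were lower, with medians of −0.85, −1.30 and −0.82 and of 0.01, 0.01 and 0.00 over all genes. Mmp13, a collagenase that AP-1 induces, averaged 51.6 ± 2.16 CPM with the combination, 33.2 ± 1.17 CPM with GW3965 and 59.1 ± 3.58 CPM with DSHN, against 90.7 ± 5.46 CPM with DMSO. It was lower with GW3965 than with DSHN by a log2 fold change of −0.84 (SE 0.05, edgeR adjusted p = 2.66e-13) and higher with the combination than with GW3965 by 0.64 (SE 0.05, edgeR adjusted p = 5.18e-11; 0.56 after the offset). Spp1, the secreted matrix protein osteopontin, averaged 772 ± 45.6 CPM with the combination, 557 ± 6.69 CPM with GW3965 and 706 ± 34.6 CPM with DSHN, against 1374 ± 119 CPM with DMSO. In both genes GW3965 had the lowest mean, as for Fos. Cd44, the hyaluronan receptor, and Mmp9, a gelatinase, were instead lowest with the combination, at 416 and 21.4 CPM there, 481 and 23.8 CPM with GW3965 and 561 and 38.5 CPM with DSHN, against 757 and 40.2 CPM with DMSO. Relative to GW3965 the combination gave −0.21 for Cd44 (edgeR adjusted p = 2.15e-05, and 0.118 after the length offset) and −0.15 for Mmp9 (edgeR adjusted p = 0.164).

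The genes most like Fos over the 20 libraries were found among 12202 genes with a symbol of their own by the root mean square difference in log2 CPM after each gene was centred on its mean. The DMSO libraries that chose Fos enter this measure. A group pattern shared with Fos, such as the highest level with DMSO, therefore follows from this choice and is no separate result. The nearest 8 were Rgs1 (0.314), a regulator that dampens chemokine receptor signalling, Nptx1 (0.316), a secreted pentraxin, Ccl2 (0.347), the main monocyte chemokine, Ptgs2 (0.353), the inducible cyclooxygenase, Cd207 (0.359), the lectin langerin, Ch25h (0.367), which makes the oxysterol 25-hydroxycholesterol, Ccr3 (0.37), the eotaxin receptor, and Trem1 (0.374), a receptor that amplifies myeloid inflammation. Of these, Ptgs2 and Ccl2 are also in the list of AP-1 targets above. Rgs1 had 31.5 to 46.2 CPM with the combination, 15.9 to 28.3 CPM with GW3965 and 29.7 to 39.9 CPM with DSHN, against 78.1 to 108.5 CPM with DMSO. Ccl2 had 17.6 to 39.7 CPM with the combination, 10.97 to 30.5 CPM with GW3965 and 21.5 to 32.9 CPM with DSHN, against 42.7 to 117.6 CPM with DMSO. Both had their lowest group mean with GW3965, as Fos did, while Ptgs2 was lowest with the combination, at 3.06 to 4.78 CPM, against 15.8 to 20.8 CPM with DMSO. Cd207 and Trem1 were at most 2.62 and 6.00 CPM in any library and carry more counting error. Of the other 9 members Dusp1 ranked 46th by this measure, Egr1 134th, Ier2 182nd and Junb 495th, while Atf3 and Jund ranked 8968th and 10212th.

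**Figure D5:**
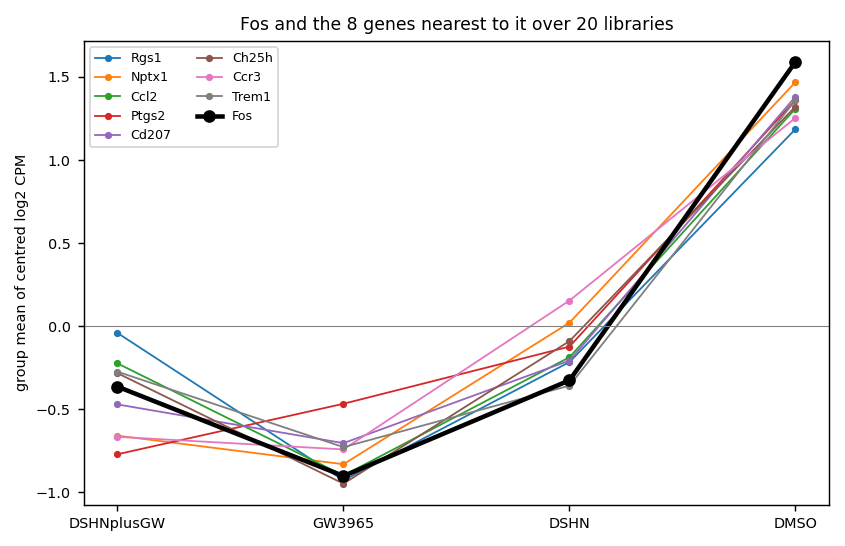
Group means of centred log2 CPM (vertical axis) of Fos (thick black line) and of the 8 genes nearest to it over the 20 libraries; lines join the 4 groups of each gene only to guide the eye. All 9 are highest in DMSO cultures, which follows from the choice of Fos and of the genes nearest to it, and Fos is lowest with GW3965.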

How the data were processed

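Raw read counts per gene were deposited by the authors, 1 file per library, and were used unchanged. Per the file headers, reads were counted with featureCounts v2.0.0 on GRCm39 with no strand option, and STAR is named in the submitters' processing notes. The library kit marks strand, per the labels' protocols, but without that option reads of either strand were counted. Of 46318 GeneIDs, 44749 were named from a RefSeq table, and the 1569 others held 0.474% of the counts.

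Genes passing edgeR's filterByExpr (13307) were scaled by TMM and fitted by quasi-likelihood over all 20 libraries (edgeR 4.0.16, R 4.3.3), with 1 mean per group. Each contrast was adjusted over all its tested genes by the Benjamini-Hochberg method, with calls under 0.05. The length offset was a per-library trend on log2 exon length. Promoters came from RefSeq (GRCm38.p6), and no coordinate was converted. Replicates of a group differed beyond counting error (biological coefficient of variation 0.0536). The labels do not say whether replicates were separate mice or wells. The p-values therefore set group differences against the spread between these cultures, which may not be the spread between mice. The labels announce 5 treatment groups and name 4.

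The members, the gene lists and the length offset were chosen with earlier results of these data known. Named were the 10 members, up to 4 genes per list with the smallest adjusted p in a contrast without DMSO, and the 8 genes nearest to Fos. 1 result that the rule names is not reported here. Egr4, Nr4a3 and Il6 of the lists were not tested for low counts. The model was tested on simulated data. Alternatives were library totals, DESeq2's size factors, no filter, a stricter filter, DESeq2 1.42.0, limma voom (3.58.1), only the groups of a contrast, a replicate block, the length offset and leaving out each library.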

Additional observations from a re-analysis of the deposited data

Results flagged for a closer look

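In a group of 5 libraries, 1 value far from the rest was looked for in 52 groups, of which chance marks about 1 in 20. Egr1 stood at 32.93 CPM in DSHN replicate 5, where the next library was at 24.29 CPM. Ier2 stood at 13.74 CPM in GW3965 replicate 4, where the next was at 11.74 CPM. The same GW3965 library was also the highest of its group for Fos (11.4 CPM), Egr1 (31.0 CPM) and Dusp1 (23.4 CPM).

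For Fos, Jun, Ier2 and Dusp1 the difference made by DSHN had opposite signs with and without GW3965, and the libraries of the 2 groups did not overlap in either setting: values were higher with the combination than with GW3965 and lower with DSHN than with DMSO. After the length offset the difference between the combination and GW3965 was 0.39 for Fos and 0.22 for Jun (edgeR adjusted p = 0.00869 and 4.12e-05), but 0.10 for both Ier2 and Dusp1, where it was no longer called (edgeR adjusted p = 0.388 and 0.299). The difference of the 2 log2 fold changes was 2.473 for Fos, 0.422 for Jun, 0.903 for Ier2 and 1.017 for Dusp1. After the length offset these 4 differences were 2.33, 0.38, 0.70 and 0.86. These differences use the control libraries on which the choice of genes rests and were not tested independently of it.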

How the results depend on the processing

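No total of called genes or members moved by more than 1.5 times under any alternative. By direction, members higher for the combination against GW3965 numbered 3 with the length offset (5 without) and 6 with library totals or the stricter filter. Members lower for the combination against DSHN numbered 1 with DESeq2, library totals or the stricter filter (2 in the fit reported). With the length offset they again numbered 2, with Dusp1 called in place of Fosl2. Leaving out 1 library gave 5 to 7 members called for the combination against GW3965 (5 with all), 3 to 4 against DSHN (4) and 4 in each case for GW3965 against DSHN (4). With the length offset several log2 fold changes changed sign: for the combination against GW3965 to 0.085 for Fosl2, −0.116 for Junb and −0.098 for Atf3, and against DSHN to −0.13 for Junb and −0.071 for Ier2. With the offset and a replicate block they were 0.084, −0.117 and −0.098, and −0.131 and −0.071. Leaving out 1 library changed the sign of 5 uncalled values: over all omissions, Fosb gave −0.338 to 0.088 for GW3965 against DMSO, Fosb −0.391 to 0.035 and Egr1 −0.393 to 0.001 for the combination against GW3965, Fos −0.089 to 0.024 for the combination against DSHN, and Junb −0.049 to 0.009 for GW3965 against DSHN. Egr1 for the combination against DSHN also lost its call with library totals (adjusted p = 0.0542) and the stricter filter (0.0526). The omissions that lost it were DSHNplusGW replicates 2, 3 and 5, GW3965 replicates 1, 2 and 5, DSHN replicates 1, 2, 4 and 5 and DMSO replicates 3, 4 and 5. Jun in that contrast was called with library totals (0.039) and without DSHNplusGW replicate 5 (0.0297). For the combination against GW3965, 10 omissions brought Atf3 and 3 brought Fosl2 under the threshold (lowest adjusted p 0.0353 without GW3965 replicate 3 and 0.0298 without DSHNplusGW replicate 1). Atf3 was also called higher there with library totals (0.124, edgeR adjusted p = 0.00188) and the stricter filter (0.079, edgeR adjusted p = 0.0328). With the length offset it was called lower (−0.098, edgeR adjusted p = 0.00903), so the direction of its call depended on the setting. Egr1 for GW3965 against DSHN was called without the filter (0.00868), and the cause was not tested. Fosb did not pass the stricter filter, and no interaction could be fitted on 2 groups. At 4 to 16 counts per library Fosb limits what can be read from its folds.

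Library totals in place of TMM shifted the split of calls: 2267 higher and 4000 lower for GW3965 against DMSO (3136 and 3058 with TMM), 4637 and 3295 for the combination against GW3965 (3760 and 3928), 768 and 1641 for GW3965 against DSHN (1104 and 1174), and 4069 and 2853 for the interaction (3154 and 3527).

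The replicate numbers, to which the labels give no meaning, were not taken to pair the libraries, since not every same-numbered pair correlated above 0.1 in its deviations from the group means. The correlation was 0.027 to 0.247, all above 0, over the 15 such pairs among DSHNplusGW, GW3965 and DMSO and −0.205 to 0.147 over the 15 with a DSHN library, and 13 of 20 libraries were closest to their own number, a hint from the data that numbers may share a source. Of the 15 pairs with a DSHN library 3 were above 0, while DSHN replicate 4 reached 0.24 with GW3965 replicate 1. A block by number may thus fail to align the DSHN libraries with the others, and a shared source under other numbers was not tested. With a replicate block 6, 4 and 4 members were called in the 3 contrasts without DMSO, Fosl2 being the added one for the combination against GW3965 (−0.11, edgeR adjusted p = 0.0303).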
